A study of Mus musculus with 6 samples.

Results

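Collagens are the triple-helical proteins of the extracellular matrix, and each is assembled from 3 alpha chains with a gene of their own. Fibrillar collagens give connective tissue its tensile strength, basement membrane collagens form sheets under epithelia and around vessels and muscle fibres, and transmembrane collagens anchor cells to the matrix. In the limb bud they are made by the loose mesenchyme, by condensing cartilage and tendon, by vessels and by the surface ectoderm. The genes described here are those whose platform symbol reads Col, digits, a, digits, without the cartilage collagens Col2a1, Col9a1, Col9a2 and Col9a3. The rule itself uses no measured value, but it was chosen with earlier results of these data known. It gave 33 genes (52 probes) of the 16593 genes named on the array. Of them, 10 are fibrillar, 9 belong to basement membranes and their anchoring fibrils, and 3 are fibril-associated (FACIT). A further 3 form beaded filaments (type VI), 2 form hexagonal networks, 4 are transmembrane and 2 stand outside these classes.

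Hindlimb buds were taken from mouse embryos at E12.5 in the strain labelled SV129, from matings of mice heterozygous for Pitx1, a homeodomain factor of the hindlimb. The 3 wild-type samples were PITX1+/+ and the 3 knockout samples were PITX1-/-, each hybridised to 1 Illumina bead array. The labels give neither the deleted part of the gene nor how many embryos made up 1 sample. The p-values then measure the spread between these samples, which may be technical. Whole buds were used, so fewer cells of a type and less RNA per cell cannot be told apart in any value below.

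Intensities are in arbitrary units, and background ended at 14.3 units. Between 13535 and 13559 of the 25697 probes lay above it on each array. Pitx1 itself read 154, 125 and 140 units in wild type and 78.3, 75.2 and 76.1 units in knockout (log2 fold change -0.51 ± 0.09 SE, limma adjusted p = 0.0385). The genotypes did not overlap for it. The Pitx1 call was lost without any 1 array other than knockout replicate 1 (adjusted p of 0.0634 to 0.295), with values floored at background (0.193) and with an offset of 16 (0.0743). All 8 limb mesenchyme markers that have a probe were tested, with summed intensities of 10768 to 11468 in wild type and 9848 to 11596 in knockout. The sums hide genes that moved in opposite directions. Tbx4 read 354, 306 and 403 units in wild type and 221, 248 and 211 units in knockout (-0.51 ± 0.10 SE, limma adjusted p = 0.076). Prrx1 read 1128, 1030 and 1168 units in wild type and 1541, 1217 and 1347 units in knockout (0.28 ± 0.10 SE, limma adjusted p = 0.474). Knockout replicate 3 lay far from the rest, at 22.3 on the first principal component (44.2% of the variance) against -8.87 to 1.39 for the other 5 arrays.

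Of the 33 collagen genes, 20 were above background on at least 3 arrays and were tested, and 13 were not. None of the 20 passed an adjusted p under 0.05 in limma in either direction, where 0.273% of the 9539 genes tested passed (26 genes). At an unadjusted p under 0.05, 6 collagen genes were lower in knockout and 0 were higher, against 4.85% and 3.66% of all genes tested. These 6 were Col5a1, Col6a1, Col17a1, Col26a1, Col18a1 and Col15a1. A log2 fold change below 0 was seen for 17 of the 20 and for 50.2% of all genes tested. The median was -0.17 over the 20 genes and -0.0006 over all genes. The probe with the highest mean stood for each gene. Without knockout replicate 1, Col5a1 passed over all probes and 11 of the 20 were lower at an unadjusted p under 0.05. Over all probes tested, 91 passed at that setting and 30 with all arrays. The share of all genes at an unadjusted p under 0.05 was not computed for fits that leave out an array. With same-numbered arrays fitted as blocks, Col5a1 passed as well (limma adjusted p = 0.0305). Without knockout replicate 3, none passed, 5 were lower at an unadjusted p under 0.05 in limma and the median was -0.12.

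**Figure D1:**
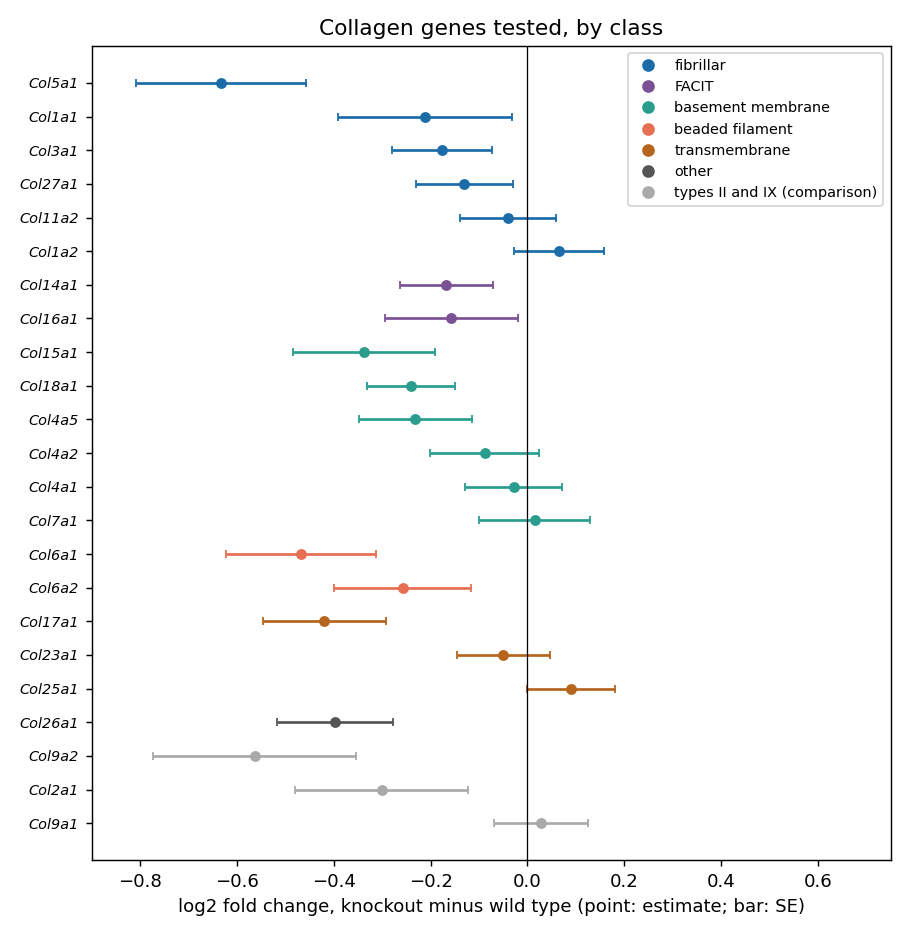
Log2 fold changes (knockout minus wild type, horizontal axis) of the 20 collagen genes tested and of 3 type II and IX genes, coloured by class, with limma's SE as bars. Col5a1 lies farthest below 0 at -0.63, and Col25a1 lies highest at 0.09.

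Upstream sequences of the members at the lower end of that range are shown so that their promoters can be set side by side. RefSeq (GRCm38.p6) gave a window of 200 bases just before the outermost annotated start for 4 of the 6 genes with an unadjusted p under 0.05. The sequences run 5′ to 3′ on the gene's strand, and capitals mark GGGCGG (the GC box), TATAAA (the TATA box) or TAATCC (the bicoid-type core read by Pitx proteins) on either strand. GGGCGG and TATAAA can each share end letters with the reverse of TAATCC, and none of the marked matches overlap. The windows are chr2:27886181-27886380 (+ strand) for Col5a1, chr10:76726045-76726244 (- strand) for Col6a1, chr10:77166531-77166730 (- strand) for Col18a1 and chr19:47692043-47692242 (- strand) for Col17a1.
Col5a1: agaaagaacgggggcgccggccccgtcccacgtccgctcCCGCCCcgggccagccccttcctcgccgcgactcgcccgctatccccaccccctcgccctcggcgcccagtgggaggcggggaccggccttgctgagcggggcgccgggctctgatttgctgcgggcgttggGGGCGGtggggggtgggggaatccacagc
Col6a1: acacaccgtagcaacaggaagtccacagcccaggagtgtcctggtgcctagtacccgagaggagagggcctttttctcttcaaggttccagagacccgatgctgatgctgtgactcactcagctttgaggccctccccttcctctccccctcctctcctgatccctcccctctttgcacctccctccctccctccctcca
Col18a1: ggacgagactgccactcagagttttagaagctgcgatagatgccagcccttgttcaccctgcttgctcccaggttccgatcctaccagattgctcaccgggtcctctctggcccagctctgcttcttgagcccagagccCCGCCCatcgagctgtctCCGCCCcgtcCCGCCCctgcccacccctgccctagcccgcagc
Col17a1: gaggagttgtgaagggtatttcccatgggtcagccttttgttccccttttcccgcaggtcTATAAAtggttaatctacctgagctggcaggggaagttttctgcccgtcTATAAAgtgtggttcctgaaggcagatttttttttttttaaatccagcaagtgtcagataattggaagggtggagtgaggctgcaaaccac

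The 4 windows differed in composition. Col5a1 held 77.0% G and C with 24 CG dinucleotides and 2 GC boxes, and Col17a1, the gene of basal epidermis, held 45.5% with 2 CG dinucleotides, 2 TATA boxes and 0 GC boxes. Col18a1 held 3 GC boxes and Col6a1 held 0 matches to any of the 3 motifs. Of the 16 collagen genes with such a window, 9 held a GC box, 3 a TATA box and 0 a TAATCC match. Over all 21975 windows the shares were 27.4%, 11.6% and 5.14%. The collagen windows were richer in G and C (median 60.0% against 51.5%) and in CG dinucleotides (6.5 against 4). The shares were not adjusted for this. A match is only a run of letters, and its absence says nothing of a factor's binding.

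Among fibrillar collagens, 6 of 10 genes were tested, 0 passed by limma and 1 was lower at an unadjusted p under 0.05, with a class median of -0.15. Col5a1, a chain of the type V collagen that starts type I fibrils and limits their width, read 2015, 1549 and 1863 units in wild type. In knockout it read 1631, 1040.4 and 855 units. Replicate 1 of the knockout lay inside the wild-type range, and the other 2 knockout arrays lay below it. The means were 1809 ± 238 and 1175 ± 405.5 units (SD, n = 3 each). The log2 fold change was -0.63 ± 0.17 (SE, limma adjusted p = 0.257). Leaving out 1 array moved it between -0.88 and -0.44, and without knockout replicate 1 it passed (adjusted p = 0.00944).

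Col1a1, a chain of type I collagen, the main collagen of bone, tendon and skin, read 282, 183 and 247 units in wild type and 296, 127 and 180 units in knockout. Its highest and its lowest array were both knockout arrays (log2 fold change -0.21 ± 0.18 SE, limma adjusted p = 0.779), and it ran from -0.45 without knockout replicate 1 to -0.0070 without knockout replicate 2. The probe for its partner chain Col1a2 was near background, at 7.84, 8.95 and 19.5 units in wild type and 16.2, 19.5 and 11.8 units in knockout. It was above background on 1 wild-type and 2 knockout arrays, so it says little on type I collagen (log2 fold change 0.06 ± 0.09 SE, adjusted p = 0.874). Col3a1, the single chain of type III collagen of loose connective tissue and vessels, was also dim, at 23.1, 21.1 and 24.2 units in wild type and 20.6, 16.3 and -0.01 units in knockout. The genotypes did not overlap for this probe (-0.18 ± 0.10 SE, limma adjusted p = 0.691). Another probe overlapped and gave -0.13.

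Of the fibrillar genes linked to cartilage, Col11a2 read 16.2, 24.6 and 22.7 units in wild type and 16.4, 29.4 and 10.5 units in knockout (log2 fold change -0.04 ± 0.10 SE, limma adjusted p = 0.930). Col27a1, a fibrillar collagen of cartilage, averaged 122 ± 22.4 and 105 ± 8.36 units (SD, n = 3 each; -0.13 ± 0.10 SE). Both genes overlapped between genotypes. The type XI partner chain Col11a1 had 3 probes, none above background on more than 2 arrays. Its brightest probe read 10.8, 10.3 and 21.2 units in wild type and 28.6, 13.7 and 5.09 units in knockout. Col5a2, the second chain of type V collagen, read -15.3, -3.10 and 2.71 units in wild type and 8.44, -4.50 and -12.1 units in knockout, below background on every array. Col5a3 and Col24a1 were not tested either.

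**Figure D2:**
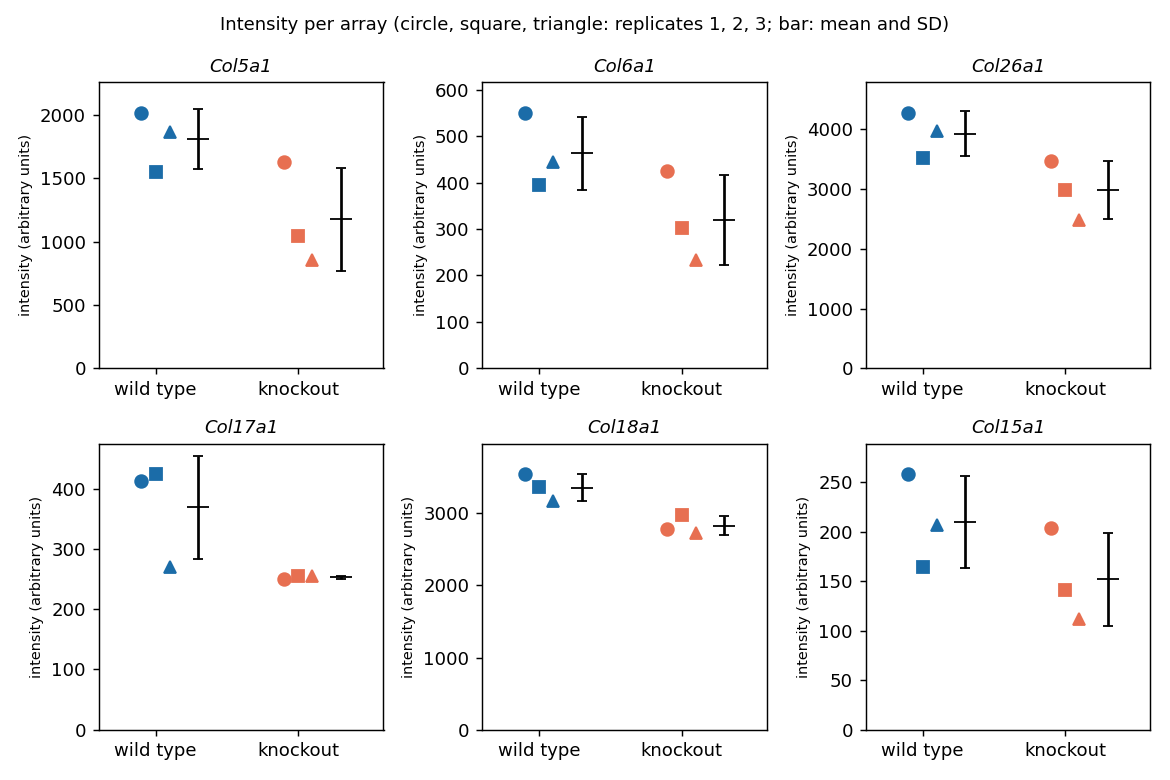
Intensity (arbitrary units, vertical axes from 0) on each array for the 6 collagen genes with an unadjusted p under 0.05, with the mean and SD of each genotype. Knockout replicate 3 is the lowest array for all but Col17a1, and for Col17a1 the wild-type replicate 3 lies next to the knockout arrays.

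Type VI collagen forms beaded filaments around muscle fibres and in many connective tissues, and mutations of its human chains cause congenital myopathies. Col6a1 read 550.4, 395 and 444 units in wild type and 425, 302 and 233 units in knockout. Knockout replicate 1 lay within the wild-type range and the other 2 lay below it. The means were 463 ± 79.4 and 319.9 ± 97.4 units (SD, n = 3 each). The log2 fold change was -0.47 ± 0.15 (SE, limma adjusted p = 0.411). With 1 array left out it ran from -0.65 (without knockout replicate 1, adjusted p = 0.0509) to -0.30 (without knockout replicate 3). A second probe of Col6a1, with nearly the same mean, gave -0.60 ± 0.16 (adjusted p = 0.211), and another was below background on all arrays. Col6a2, which lies next to Col6a1 among the protein-coding genes of mouse chromosome 10, read 205, 134 and 148 units in wild type and 171, 98.0 and 105 units in knockout. For both genes wild-type replicate 1 was the highest array, and for Col6a2 knockout replicate 2 was the lowest (-0.26 ± 0.14 SE, adjusted p = 0.667). Its value ran from -0.42 without knockout replicate 1 to -0.13 without wild-type replicate 1. Col6a6 was below background on all 6 arrays.

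The basement membrane class gave 6 tested genes of 9, with 0 called by limma, 2 lower at an unadjusted p under 0.05 and a median of -0.16. Col4a1 and Col4a2, the chains of the type IV network found in nearly all basement membranes, lie next to each other in the genome. Col4a1 read 2261, 2172 and 2259.8 units in wild type and 2435, 1911 and 2242 units in knockout. Col4a2 read 2149.8, 1749 and 1853 units in wild type and 2033, 1549 and 1827 units in knockout. For both genes knockout replicate 1 lay within or above the wild-type range and knockout replicate 2 was the lowest of the 6 arrays. Their log2 fold changes were -0.03 ± 0.10 and -0.09 ± 0.11 (SE, limma adjusted p = 0.952 and 0.860), and both turned above 0 without knockout replicate 2. Col4a5, an X-linked type IV chain, read 96.5, 149 and 113 units in wild type and 112, 80.1 and 80.5 units in knockout, so the genotypes overlapped. It averaged 119.8 ± 26.98 and 90.8 ± 18.2 units (SD, n = 3 each; -0.23 ± 0.12 SE, adjusted p = 0.645).

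Col15a1 and Col18a1 encode the multiplexins, proteoglycan collagens at the outer face of basement membranes, and Col18a1 carries the endostatin fragment. Col15a1 read 258, 164 and 207 units in wild type and 204, 141 and 112 units in knockout. Here too knockout replicate 1 overlapped the wild-type arrays (log2 fold change -0.34 ± 0.15 SE, limma adjusted p = 0.604). Leaving out knockout replicate 1 gave -0.50, and leaving out knockout replicate 3 gave -0.20. Col18a1 read 3541, 3363 and 3169.6 units in wild type and 2788, 2973 and 2729 units in knockout. All 3 knockout arrays lay below all wild-type arrays (-0.24 ± 0.09 SE, adjusted p = 0.507). Its second tested probe went the other way, at 102, 115 and 88.4 units in wild type and 117, 116 and 136 units in knockout, also without overlap (0.17 ± 0.10 SE, limma adjusted p = 0.680). Which transcripts each probe reads was not tested. Col7a1, the anchoring fibril collagen of skin, read 188, 157 and 126 units in wild type and 138, 151 and 187 units in knockout (0.01 ± 0.12 SE, adjusted p = 0.978).

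Transmembrane collagens split into 1 gene with lower values and 2 near 0. Col17a1, the hemidesmosome collagen that fixes basal keratinocytes to the basement membrane, read 413, 424 and 270.4 units in wild type. In knockout it read 250.2, 254 and 255 units. The 3 knockout arrays lay close together and just below wild-type replicate 3, the lowest wild-type array. The means were 369 ± 85.8 and 253 ± 2.62 units (SD, n = 3 each). The log2 fold change was -0.42 ± 0.13 (SE, limma adjusted p = 0.343). Both other probes of Col17a1 gave -0.50 ± 0.15 and -0.37 ± 0.13 (adjusted p = 0.322 and 0.449), and for both the genotypes overlapped at wild-type replicate 3.

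That same wild-type array was low for surface ectoderm markers. The summed intensity of the 7 tested ectoderm genes was 11622, 12189 and 7592 units in wild type and 9676, 9158 and 10170.0 units in knockout, so the genotypes overlapped. Krt14, a keratin of basal epidermis, read 9139.5, 9551 and 5975 units in wild type and 7718, 7143 and 7737 units in knockout (log2 fold change -0.10, limma adjusted p = 0.883). The ectoderm list had a median of -0.09, and 0 of 7 passed by limma. The part of ectoderm content in the Col17a1 values was not tested.

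Col23a1, a transmembrane collagen, read 532, 457 and 461 units in wild type and 501, 459.9 and 432 units in knockout. It averaged 484 ± 41.9 and 465 ± 34.9 units (SD, n = 3 each, limma log2 fold change -0.05 ± 0.10 SE, limma adjusted p = 0.910). Col25a1, which in the mouse is needed for motor axons to enter muscle, read 28.5, 17.9 and 26.6 units in wild type and 30.0, 35.02 and 26.1 units in knockout. Its genotypes overlapped (0.09 ± 0.09 SE, adjusted p = 0.815), its second tested probe gave 0.02 ± 0.09, and 3 further probes were not tested. Col13a1, a collagen of the neuromuscular junction, read -25.6, -21.6 and -18.0 units in wild type and -25.2, -28.1 and -21.4 units in knockout, below background throughout.

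Col26a1 encodes a short collagen with an EMI domain and stands outside the classes. It read 4275, 3527 and 3975 units in wild type and 3466, 2991 and 2487 units in knockout. All knockout arrays lay below all wild-type arrays, with knockout replicate 1 just under wild-type replicate 2. The means were 3926 ± 377 and 2981 ± 489 units (SD, n = 3 each). The log2 fold change was -0.40 ± 0.12 (SE, limma adjusted p = 0.347). Col28a1 was not tested.

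Of the fibril-associated collagens, which sit on the surface of fibrils, Col14a1 read 24.5, 15.97 and 16.4 units in wild type and 11.7, 13.7 and 1.53 units in knockout. It was above background on all 3 wild-type arrays and on 0 knockout arrays, so it was tested through the wild-type arrays only, and wild type was at least 1.05-fold brighter on the log2 scale with its offset (limma adjusted p = 0.677). Col16a1 read 174, 181 and 194 units in wild type and 207, 170.1 and 105 units in knockout (log2 fold change -0.16 ± 0.14 SE, limma adjusted p = 0.784). Its direction rested on knockout replicate 3, without which the value was 0.03. Col19a1 was below background on every array.

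Of the hexagonal network collagens, 0 of 2 were tested. Col10a1, the marker of hypertrophic cartilage, read -9.14, -17.9 and -12.4 units in wild type and -13.6, -19.7 and -11.9 units in knockout. Col8a2, a network chain of the cornea and vessels, lay between -12.0 and 6.69 units. The remaining members not tested were Col4a3, Col4a4 and Col4a6, type IV chains of specialised basement membranes. One probe of Col4a6 was above background on 1 knockout array. No probe of Col4a3 or Col4a4 was above background on any array.

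The genotypes did not overlap for 5 of the 20 genes tested, all lower in knockout (Col3a1, Col14a1, Col17a1, Col18a1 and Col26a1), against 7.32% of all genes tested, and 0 were higher without overlap, against 6.51%. Col14a1 entered the test through its wild-type arrays alone, so the filter had a part in its place among the 5, in the 17 genes below 0 and in the median. With 3 arrays a genotype, a two-sided exact permutation test of a single gene cannot go below p = 0.1. The knockout arrays were not alike. Knockout replicate 1 lay below all wild-type arrays for 5 of the 20 genes (25%, against 26.9% of all genes tested). Knockout replicates 2 and 3 did so for 15 and 14 genes (75.0% and 70.0%, against 29.6% and 34.4% of all genes).

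Averaged over the 20 genes, the log2 level minus the wild-type mean was 0.08, -0.05 and -0.03 in wild type and -0.04, -0.23 and -0.31 in knockout replicates 1, 2 and 3. Replicate 1 thus lay inside the wild-type range and the other knockout arrays below it. Of the 5 classes, type VI had the widest range, at 0.24, -0.18 and -0.06 in wild type and -0.01, -0.48 and -0.60 in knockout. The basement membrane class lay at -0.04, -0.24 and -0.18 in knockout, and the fibrillar class at 0.0025, -0.24 and -0.33.

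The same averages of log2 levels for marker lists of muscle, tendon and cartilage lay below every wild-type array on all 3 knockout arrays, replicate 1 included (-0.69, -0.17 and -0.27 there). Single genes of the last 2 lists were mixed on knockout replicate 1. For cartilage, Matn4, Matn1, Acan and Comp lay below all wild-type arrays, and Sox9, Col2a1, Col9a1 and Col9a2 lay inside their range. Comp read 5.93 units there and 8.92 units in wild-type replicate 1, both below background. Acan was dim, at 16.7 units there and 31.5 units in knockout replicate 2, its highest array. For tendon, Mkx, Tnc and Dcn lay below, Scx, Lum, Fmod, Thbs2 and Osr2 inside, and Osr1 above. Skeletal muscle genes summed to 18383, 14805 and 15079 units in wild type and 8456, 6436 and 2499.7 units in knockout (7 of 13 tested fell, limma). The myogenic factors Myf5 and Myf6 were below the detection filter. Tendon and connective tissue genes summed to 7755, 7099 and 7194 units in wild type and 6678, 6594 and 5934 units in knockout (1 of 9 fell, median -0.24). Cartilage genes summed to 3745, 3600.5 and 5625 units in wild type and 3694, 2930.5 and 1969 units in knockout (1 of 8 fell, median -0.33).

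Endothelial and mural genes summed to 8005 to 8365 units in wild type and 3593 to 7816 units in knockout, and Acta2, smooth muscle actin, read 5563 to 5829.8 and 1524 to 5208 units of these (list median -0.05, 0 of 9 called by limma). Macrophage genes summed to 367 to 450.2 units in wild type and 289 to 377 units in knockout (median -0.22, 0 of 5 called). Erythroid genes had a median of 0.46, with 1 of 7 higher at the threshold. The 1 tested Schwann and neural crest gene gave -0.14, and the 2 tested osteoblast genes had a median of -0.02. The array pattern of the collagens, with only knockout replicates 2 and 3 below all wild-type arrays, also held for other log2 averages. In knockout these were 0.09, -0.16 and -0.08 for limb mesenchyme and -0.01, -0.09 and -0.36 for endothelium and mural cells. Macrophage genes gave -0.076, -0.16 and -0.22. The surface ectoderm and erythroid averages did not follow this pattern. Both the endothelial and the limb mesenchyme average hold 1 gene that fell far more than its list. Acta2 gave -0.93 (list median -0.05) and Tbx4 gave -0.51 (list median -0.04, with 4 genes below 0 and 4 above). Averages without these genes were not computed, so the pattern cannot be read as a trait of the other genes in these 2 lists. The part of tissue makeup in the collagen values was not tested.

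**Figure D3:**
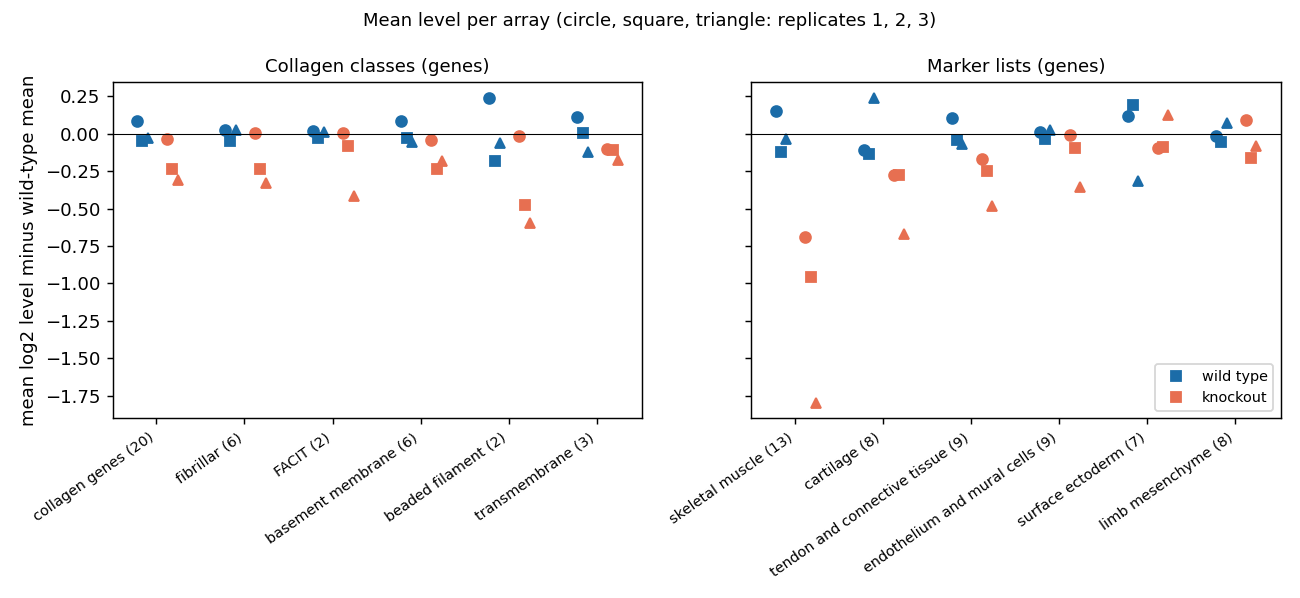
Mean log2 level on each array minus the wild-type mean, for the collagen classes (left) and for 6 marker lists (right), with the number of genes in brackets. Knockout replicate 1 (circle) lies near the wild-type arrays for collagens, and also for the limb mesenchyme and endothelial lists. Skeletal muscle lies below wild type on all 3 knockout arrays, down to -1.80.

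Of the 4 type II and IX genes left out by the choice above, 3 were tested and 0 passed by limma. Col9a2, a chain of the FACIT that coats cartilage fibrils, read 872, 729.9 and 1236 units in wild type and 865, 622 and 399 units in knockout (log2 fold change -0.56 ± 0.21 SE, limma adjusted p = 0.507). Col2a1, the main cartilage collagen, averaged 2003 ± 461 and 1628 ± 472 units (SD, n = 3 each). Both genes were highest in wild-type replicate 3, while 10 of the 20 other collagen genes were highest in wild-type replicate 1 and 2 in wild-type replicate 3. Col9a1 gave 0.03 ± 0.10 (adjusted p = 0.95), and Col9a3 was below background on all arrays.

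Collagen chains need hydroxylases, chaperones, propeptide proteases and crosslinking enzymes before they form fibrils. Of 43 genes of this processing and receptor list with a probe, 34 were tested and 0 passed by limma in either direction. At an unadjusted p under 0.05, 6 were lower and 0 were higher, against the 4.85% and 3.66% of all genes given above. The list median was -0.07, and 29 of the 34 lay below 0 on the log2 scale, against 50.2% of all genes tested. Without knockout replicate 1, 2 of its genes passed, Mmp14 and Sparc, where 91 of the 13720 probes tested passed.

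Pcolce2, which enhances removal of the procollagen C-propeptide, read 316, 293 and 353 units in wild type and 261, 217 and 179 units in knockout. All knockout arrays lay below all wild-type arrays (log2 fold change -0.44 ± 0.11 SE, limma adjusted p = 0.192). Bmp1, the C-propeptide protease itself, read 3055, 2885 and 3225 units in wild type and 2761, 2643 and 2594 units in knockout, without overlap (-0.19 ± 0.09 SE, adjusted p = 0.620). Averaged over the tested probes of a gene, Pcolce2 gave -0.27 and Bmp1 gave -0.077, so the absence of overlap holds for the probe shown. Plod3, a lysyl hydroxylase and glycosyltransferase, read 2361, 2303 and 2575 units in wild type and 2106, 1990.2 and 1631 units in knockout, also without overlap (-0.33 ± 0.11 SE, limma adjusted p = 0.384). Colgalt2, a collagen galactosyltransferase, read 30.9, 28.4 and 38.7 units in wild type and 22.6, 14.7 and 15.6 units in knockout, without overlap (-0.22 ± 0.09 SE, adjusted p = 0.565).

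Lox, the lysyl oxidase that crosslinks fibrils, read 229, 197 and 139 units in wild type and 147, 139 and 23.9 units in knockout. Its low mean in knockout came mostly from replicate 3 (-0.65 ± 0.24 SE, limma adjusted p = 0.507), without which the value was -0.26. Mmp14, a membrane-bound collagenase, read 3182, 2699.7 and 3299 units in wild type and 2838, 2183 and 1791 units in knockout, with overlap at replicate 1 (-0.44 ± 0.14 SE, adjusted p = 0.385). It ran from -0.61 without knockout replicate 1 (adjusted p = 0.0457) to -0.285 without knockout replicate 3. Itga11, a collagen receptor of fibroblasts, read 482, 449.5 and 532 units in wild type and 505, 359 and 259 units in knockout, with the same overlap (-0.36 ± 0.15 SE, limma adjusted p = 0.597). It ran from -0.56 without knockout replicate 1 to -0.16 without knockout replicate 3, and gave -0.24 averaged over its tested probes. Sparc, a collagen-binding chaperone, read 2228, 2214 and 2125 units in wild type and 2602, 1379 and 1539 units in knockout. Knockout replicate 1 was its highest array and the other knockout arrays were its lowest (-0.30 ± 0.17 SE, adjusted p = 0.681). Its value was -0.56 without knockout replicate 1 (limma adjusted p = 0.0274) and -0.12 without knockout replicate 2. Averaged over its tested probes it was -0.37.

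Of the 14 hydroxylase, glycosyltransferase and partner genes tested, 13 lay below 0, against 50.2% of all genes tested. Their median was -0.14, and 0 were called by limma. Among them P3h1, P3h2 and P3h3, prolyl 3-hydroxylases, gave -0.17, -0.18 and -0.18. Crtap, of the same group, gave -0.17, and P3h4 gave -0.01. Loxl1, a crosslinking enzyme, gave -0.17 as well. Serpinh1, the collagen chaperone Hsp47, averaged 907 and 886 units (log2 fold change -0.04 ± 0.10 SE, limma adjusted p = 0.937). P4hb, the beta subunit of prolyl 4-hydroxylase, averaged 11462 and 10565 units with no overlap between genotypes (-0.12 ± 0.09 SE, adjusted p = 0.752). It was the fifth gene of the list without overlap, beside Pcolce2, Bmp1, Plod3 and Colgalt2. Of the 34 genes tested, each by 1 probe, these 5 were lower without overlap and 0 were higher, against 7.32% and 6.51% of all genes tested. Mmp2, a gelatinase, gave 0.07 ± 0.10, and the receptor subunit Itgb1 gave 0.04 ± 0.09. Of the 4 receptor genes tested, 1 (Itga11) was lower at an unadjusted p under 0.05.

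**Figure D4:**
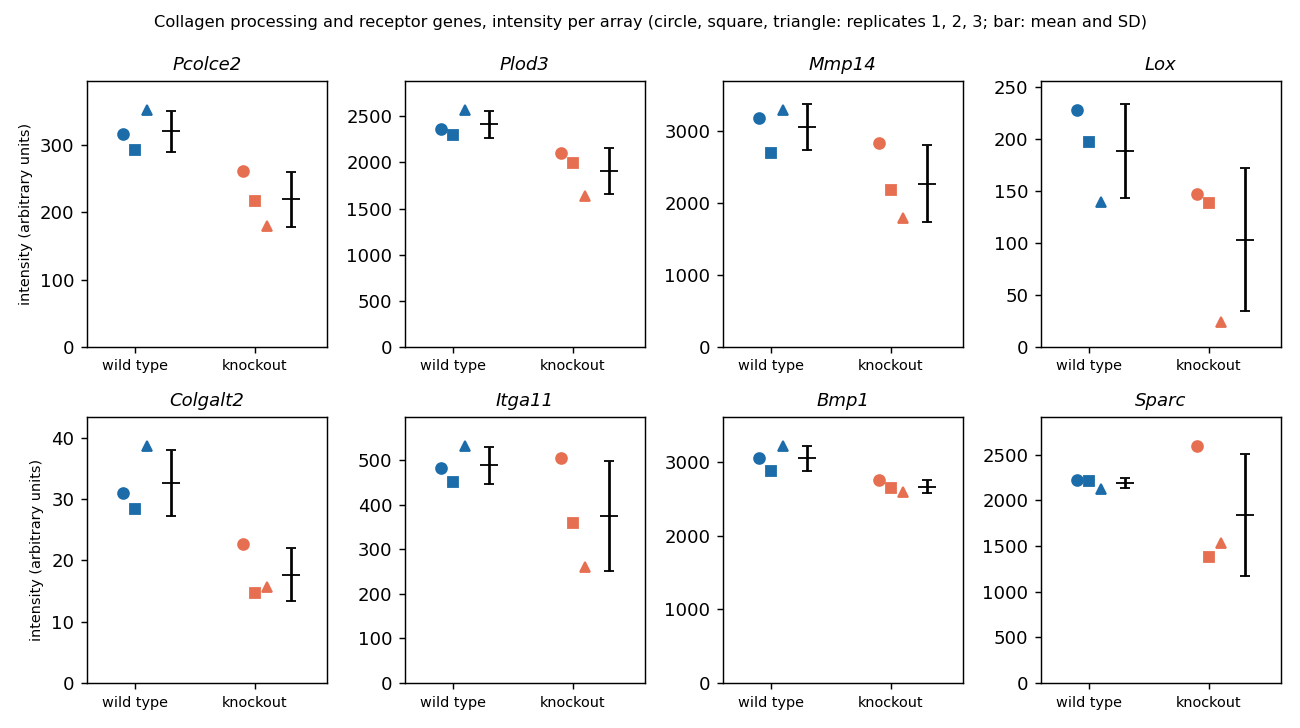
Intensity (arbitrary units, vertical axes from 0) on each array for the 8 collagen processing and receptor genes with the smallest p, with the mean and SD of each genotype. For Pcolce2, Plod3, Colgalt2 and Bmp1 the knockout arrays lie below all wild-type arrays, and for Mmp14, Itga11 and Sparc knockout replicate 1 lies among or above them.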

How the data were processed

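The value table of linear intensities, 6 columns matched to samples by name, was used as deposited. Per the labels' protocols, Trizol RNA was DNase-treated and labelled as biotinylated cRNA with an Ambion MessageAmp kit. The software, background step and normalization are not given in the sources used here. From the values, 27.9% lie below 0 and the sorted columns differ by at most 1.09 units, as after background subtraction and quantile normalization. A second table with 12 value columns was not used, since its running numbers match no sample's labels.

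Intensities were corrected with normexp (offset 50) and converted to log2 in limma 3.58.1 (R 4.3.3). The offset understates fold changes of dim probes. The background threshold was 1.64 times the root mean square (8.71 units) of the values below 0. The 13720 probes above it on at least 3 of 6 arrays were fitted with genotype as the only term (lmFit, eBayes), with Benjamini-Hochberg adjustment over all of them at 0.05. The fit was tested on simulated data. Array number, 3 per genotype, limits precision.

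Of the 25697 probes, 23978 have 1 platform symbol, 0 have several and 1719 have none. Of the 23978, 23962 were matched by Entrez identifier to a GRCm38.p6 gene and carry its name. Col6a3, Col8a1 and Col12a1 were not analysed here. Cross-hybridisation between related chains was not tested. Members, lists and named genes were chosen with earlier results of these data known. All tested members are named, with values on each array for a list of genes fixed by name where measured, for the 10 members of smallest p and for the 8 processing genes of smallest p. Krt14, Acta2, Tbx4, Prrx1, Acan, Comp, Serpinh1, P4hb, P3h1, P3h2, P3h3, P3h4, Crtap, Loxl1, Mmp2 and Itgb1 were chosen after their values were seen. Alternatives covered the background step, offset, normalization, filter, replicate block, variance model, array weights, probes per gene and each array left out. Same-numbered arrays did not deviate together in every pair (correlations of 0.23, 0.17 and -0.07), so no pairing was used. Pairs with unlike numbers gave -0.34 to 0.12, so 0.23 and 0.17 were the highest correlations. With the replicate block 84 probes passed by limma in place of 30, Col5a1 and Lox among them. Figures used matplotlib 3.10.9.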

Additional observations from a re-analysis of the deposited data

How the results depend on the processing

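The counts of collagen genes and of processing and receptor genes called by limma were 0 at the reported setting and under the other background step, offset, normalization, filters, variance model, array weights and mean over probes. With the replicate block 1 collagen gene was lower (Col5a1, adjusted p = 0.0305) and 1 processing gene was called (Lox, adjusted p = 0.0342). With 1 array left out, collagen genes lower ran from 0 to 1 and the processing genes from 0 to 2, the higher values without knockout replicate 1. Higher collagen genes stayed at 0 throughout. The collagen median ran from -0.27 (floored values) to -0.088 (no filter, 33 genes). Collagen genes lower at an unadjusted p under 0.05 ran from 4 to 11, and the share of all genes was not computed at these settings. Of 296 refitted values of single collagen genes, 285 kept their direction and side of the threshold, 2 newly passed (Col5a1) and 9 turned direction, none past the threshold. With array weights Col4a1 gave 0.0275 and Col7a1 -0.037. Col23a1 gave 0.012 without wild-type replicate 1, and Col7a1 -0.085 without wild-type replicate 3. Without knockout replicate 2, Col4a1 gave 0.065 and Col4a2 0.012. Without knockout replicate 3, Col7a1 gave -0.0705, Col11a2 0.026 and Col16a1 0.029. With 1 array left out, the values ran from -0.10 to 0.065 for Col4a1, from -0.18 to 0.012 for Col4a2, from -0.085 to 0.11 for Col7a1, from -0.12 to 0.026 for Col11a2, from -0.30 to 0.029 for Col16a1 and from -0.098 to 0.012 for Col23a1. The cause was not tested. Over all probes, 30 passed at the reported setting and 0 to 91 under the alternatives. Pitx1 lost its call with floored values, offset 16 and without any array but knockout replicate 1. Probes near background, such as those of Col1a2, Col3a1 and Col14a1, limit what can be said of those genes.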
